A study of Homo sapiens with 8 samples.

Results

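Regions of at least 1000 bp that lay more than 3000 bp from both ends of every protein-coding gene were taken from the RBBP4 list of a chromatin immunoprecipitation sequencing experiment in NCI-H69 cells, a human small cell lung cancer line. Of 35154 listed RBBP4 regions, 1876 (5.34%) met these criteria, with gene ends read from RefSeq on GRCh38.p14. They are called wide distal regions below. A stretch of chromosome 8 from position 113000001 to 128000000, which held 76 wide regions, was left out. The rule used width and position and no read counts, although the list it was applied to held only regions past a p threshold. Each member's region was also named after the library with the higher signal, so width is not independent of the signal compared. The rule was set with earlier results of these data known.

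Cells of a single line were transfected with siRNA against CSNK2B or with non-targeting siRNA, and chromatin was fixed after 48 h. Each arm gave 1 RBBP4 library, 1 P300 library and an input library for each. There were therefore no replicates, no spread between cultures could be computed, and the values below compare 2 libraries rather than 2 conditions. Intervals on folds cover counting error only. The knockdown itself was not measured in the files used here, and the lung cancer cell type could not be checked against expression markers. Each list column was assigned to its arm from the authors' column and region names, which name no siRNA. The arm named Sample was read as the knockdown, and every direction below rests on that reading.

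RBBP4 is a histone-binding protein that serves as a shared subunit of the NuRD, Sin3 and Polycomb repressive complexes and of the chromatin assembly factor. CSNK2B encodes the regulatory subunit of casein kinase 2, a kinase with many nuclear substrates. Regulatory DNA far from gene ends includes enhancers, which often lie in introns or in gene deserts beside developmental genes, and P300 is an acetyltransferase found at many active enhancers.

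Although no member lay near a gene end, 92 of them covered a transcription start in RefSeq, either an internal start of a protein-coding gene or the start of a long non-coding RNA. The sequences of 6 such starts are shown because they include CpG-rich and CpG-poor windows. Each runs 5′ to 3′ on the gene's own strand from 250 bases before to 50 bases after the start (RefSeq, GRCh38.p14), with every CpG in capitals.
GSE1: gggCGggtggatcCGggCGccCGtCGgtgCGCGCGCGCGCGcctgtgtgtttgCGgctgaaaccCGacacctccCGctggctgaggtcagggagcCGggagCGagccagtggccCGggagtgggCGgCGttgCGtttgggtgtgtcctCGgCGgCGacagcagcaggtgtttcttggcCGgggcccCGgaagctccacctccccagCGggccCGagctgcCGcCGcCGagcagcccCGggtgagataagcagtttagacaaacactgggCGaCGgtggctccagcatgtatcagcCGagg
CDC14B: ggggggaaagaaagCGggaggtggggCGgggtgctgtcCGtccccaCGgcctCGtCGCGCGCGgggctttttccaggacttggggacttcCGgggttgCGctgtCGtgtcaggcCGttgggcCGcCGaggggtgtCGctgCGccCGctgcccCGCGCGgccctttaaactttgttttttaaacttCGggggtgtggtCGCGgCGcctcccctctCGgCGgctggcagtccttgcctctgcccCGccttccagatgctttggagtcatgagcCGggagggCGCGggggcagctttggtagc
CDKN2C: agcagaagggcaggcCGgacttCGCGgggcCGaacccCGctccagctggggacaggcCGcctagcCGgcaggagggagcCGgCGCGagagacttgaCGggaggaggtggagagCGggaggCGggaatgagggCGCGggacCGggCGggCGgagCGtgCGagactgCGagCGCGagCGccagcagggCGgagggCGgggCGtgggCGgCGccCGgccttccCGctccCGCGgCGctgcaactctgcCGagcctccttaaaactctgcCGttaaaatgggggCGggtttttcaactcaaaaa
NFIB: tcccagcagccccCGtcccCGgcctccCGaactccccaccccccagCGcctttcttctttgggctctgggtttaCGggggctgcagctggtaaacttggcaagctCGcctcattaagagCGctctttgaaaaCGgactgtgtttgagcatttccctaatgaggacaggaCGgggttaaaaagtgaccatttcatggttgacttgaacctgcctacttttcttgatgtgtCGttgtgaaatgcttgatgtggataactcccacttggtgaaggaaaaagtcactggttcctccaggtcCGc
FOXP2: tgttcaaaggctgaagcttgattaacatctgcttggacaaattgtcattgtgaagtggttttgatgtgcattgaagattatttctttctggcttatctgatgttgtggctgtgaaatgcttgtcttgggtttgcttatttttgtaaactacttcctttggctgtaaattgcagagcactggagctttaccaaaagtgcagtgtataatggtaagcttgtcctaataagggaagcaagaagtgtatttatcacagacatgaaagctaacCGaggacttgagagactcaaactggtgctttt
LINC02288: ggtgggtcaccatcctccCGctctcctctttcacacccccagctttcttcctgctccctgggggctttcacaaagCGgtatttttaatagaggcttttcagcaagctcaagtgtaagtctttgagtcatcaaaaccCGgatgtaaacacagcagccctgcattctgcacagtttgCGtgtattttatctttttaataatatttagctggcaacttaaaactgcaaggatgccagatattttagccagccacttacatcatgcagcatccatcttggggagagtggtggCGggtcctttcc
The GSE1 window, chr16:85613072-85613371 on the plus strand, held 34 CpGs. The CDC14B window, chr9:96566782-96567081 on the minus strand, held 31. The CDKN2C window, chr1:50968456-50968755 on the plus strand, held 37, the most of the 6 shown. The NFIB window, chr9:14316088-14316387 on the minus strand, held 11. The FOXP2 window, chr7:114414565-114414864 on the plus strand, held 1. The LINC02288 window, chr14:77040799-77041098 on the plus strand, held 5. The first 3 are thus CpG-rich and the last 3 CpG-poor or intermediate.

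All 92 regions over a start had more RBBP4 signal in the knockdown library, near the 96.6% of all members and the 96.4% of members over no start, with a median of 55 reads against 9.5 in the control library. The region over the internal GSE1 start had 157 reads after CSNK2B siRNA and 27 in the control. GSE1 is a coiled-coil chromatin protein, and this region, at 3292 bp, was among the widest. The region over the CDC14B start, a gene for a cell cycle phosphatase, had 152 against 26 reads. At CDKN2C, which encodes a cyclin-dependent kinase inhibitor, the region had 54 against 14 reads. At NFIB, a nuclear factor I gene that is often amplified in small cell lung cancer, it had 56 against 16 reads. The FOXP2 start, of a forkhead factor gene, lay in a region with 57 against 11 reads. The LINC02288 region, nearest to IRF2BPL, had 209 against 31 reads, the most of any region over a start. The 6 regions shown were all higher in the knockdown library, whether their windows were rich or poor in CpGs.

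Folds over these starts were computed from the reads after scaling each library to its reads in all regions that the authors tested. The fold was 4.01 at GSE1 (95% exact binomial interval 2.65 to 6.28), 4.03 at CDC14B (2.65 to 6.37) and 2.66 at CDKN2C (1.46 to 5.19). The intervals of these 3 regions overlapped. The 122 starts under members belonged to 101 genes, and 3 of these genes, picked after their values were seen, are given as examples. The region over PCNA, the sliding clamp of DNA polymerases, had 43 against 5 reads. The region over UHRF1, which links DNA methylation to replication, had 47 against 11 reads. The region over CDC25C, a mitotic phosphatase gene, had 33 against 7 reads. All 3 were higher in the knockdown library, and the lower bounds of their folds were 2.35, 1.51 and 1.41.

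Starts were less frequent under wide distal regions than under the list as a whole, as the choice of members away from gene ends requires. They were covered by 4.90% of members, by 10.8% of all listed regions, by 57.6% of wide regions at gene ends and by 1.68% of narrow regions away from gene ends. The 92 regions divided into 47 over a protein-coding start and 45 over lncRNA starts only. Their median log2 ratio was 1.76 and 2.09 in these classes. These starts had a median GC content of 62% and a median of 20 CpGs in the window, against 58.7% and 14 over all 35116 starts. Sequence motifs were sought on both strands of the same windows. GGGCGG, the GC box, was in 52.5% of the starts under members and in 45% of all starts. CCAAT was in 32.8% and 34.6%, TTTGAA in 12.3% and 15.2%, TGANTCA in 9.84% and 7.71%, CACGTG in 4.92% and 7.26%, and TATAAA in 12.3% and 11.5%. These matches are descriptions of letters in a window and not of binding.

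Signal at the 1876 regions was higher in the knockdown library at 1812 and lower at 64. The median region had 67 reads in the knockdown library and 12 in the control library, a median log2 ratio of 1.96 on RPKM + 1. At least 2-fold higher signal was found at 1727 members (92.1%), where 64.9% of all listed regions were called. At least 2-fold lower signal was found at 64 (3.41%), where 31.2% of all listed regions were called. The remaining 85 members were higher by less than 2-fold. By the adjusted p of the authors' deposited table, 1782 members passed 0.05 with higher signal, or 94.99% against 48.3% over the list. With lower signal, 30 members passed in the authors' deposited table, or 1.60% against 8.94%.

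These shares describe a list and not the genome. The adjusted p-values of the authors' deposited table imply 95329 tested regions, and its highest listed p was 0.0493. Therefore every listed region had already passed a threshold and had to differ between the libraries. That threshold named no direction, but it acted on the authors' scale, where log2 fold changes were higher by 0.58. On the scale used here, lower regions therefore had to differ by more than higher regions. The log2 ratios of higher members began at 0.42, and none of the lower members lay above -1.53. All 10974 lower regions of the list were at least 2-fold lower, so that count was largely fixed by the threshold. Each member's peak name carried the arm in which it was higher, in 1876 of 1876 cases. The width minimum thus acted on peaks named for the higher arm, and the shares of higher and lower members are not free of it. Of the 1812 higher members, 53 had a fold interval that included 1 after the scaling used here, and none of the 64 lower members did. The offset between the scales enters both of these counts.

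**Figure D1:**
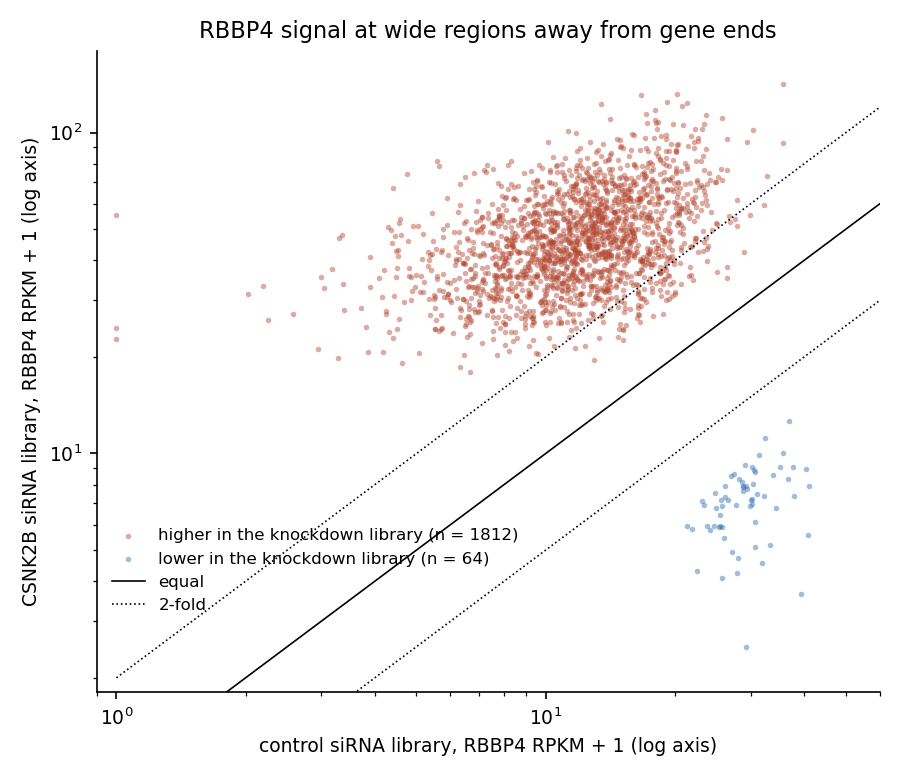
RBBP4 signal in the control siRNA library (horizontal) against the CSNK2B siRNA library (vertical) at the 1876 wide distal regions, as RPKM + 1 on log axes, 1 point per region. The 1812 higher regions (red) and the 64 lower regions (blue) form 2 separate clouds on either side of the line of equality, and no member lies on that line.

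The 2 directions differed in size and depth. Higher members had 12 to 476 reads in the knockdown library, with a median of 68, and 0 to 57 in the control library, with a median of 12. Lower members had 1 to 17 reads in the knockdown library, with a median of 8, and 10 to 45 in the control library, with a median of 25. Lower members were therefore shallow regions throughout, and their widths, 1001 to 1604 bp, stayed close to the minimum. Higher members reached 4103 bp. The lower share declined with width, from 62 of 1366 regions of 1000 to 1499 bp, to 2 of 348 of 1500 to 1999 bp and 0 of 142 of 2000 to 2999 bp. None of the 20 regions of 3000 bp or more was lower. Control reads at those 20 ran from 18 to 57 and knockdown reads from 103 to 476. Over the same width classes, the median knockdown reads of all members rose from 58 to 91.5, 120 and 204. Width is therefore not independent of the signal compared, and its part in the lower share was not tested.

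Direction was also read by depth. Among wide distal regions with 20 to 49 reads over both libraries, 82.4% of 323 were higher, and among narrow regions away from gene ends of that depth, 83.5% of 8536. With 50 to 99 reads the shares were 99.7% of 939 and 99.8% of 1258. In these 2 bins of depth, wide and narrow distal regions had shares close to each other. Below 20 reads the shares were 69.2% of only 13 wide regions and 41.8% of 15407 narrow regions, the bin that held most narrow regions. Over all depths the shares were 96.6% and 58.9%, at median depths of 79 and 16 reads. Depth here sums both libraries and so is set in part by the difference itself, and its part in the shares was not tested. Wide regions at gene ends had a higher share at 20 to 49 reads, 99.4% of 334. No test of these differences was possible with 1 library per arm.

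**Figure D2:**
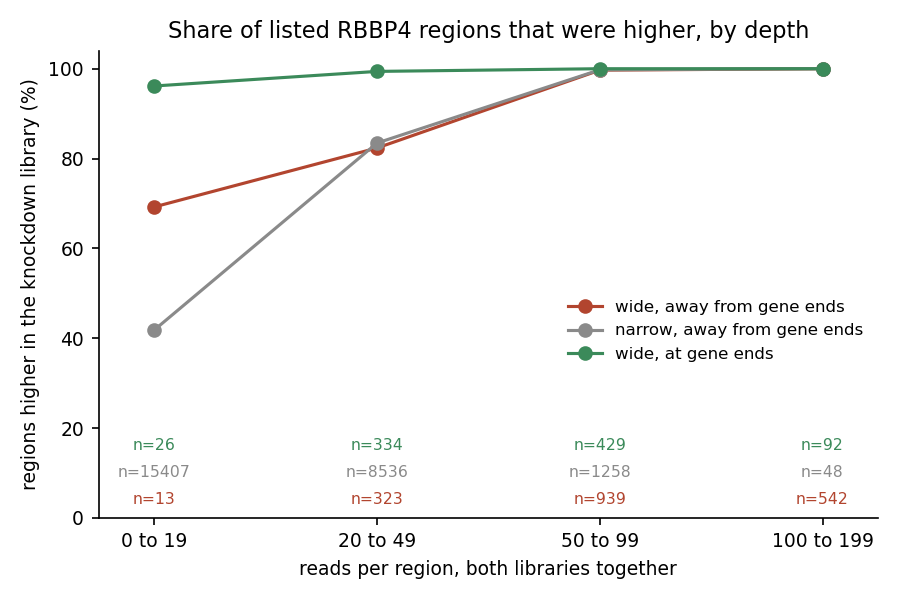
Share of listed RBBP4 regions that were higher in the knockdown library (vertical, %) by the reads per region over both libraries (horizontal), for wide regions away from gene ends, narrow regions away from gene ends and wide regions at gene ends, with the number of regions at the foot. At 20 to 49 reads the shares were 82.4%, 83.5% and 99.4%, and from 50 reads upward all lay above 99%. The first bin holds only 13 wide distal regions.

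Ratios depended little on distance to the nearest gene end. The median log2 ratio was 1.83 over 202 members at 3000 to 10000 bp, 1.92 over 606 at 10000 to 50000 bp, 1.99 over 688 at 50000 to 200000 bp and 1.99 over 380 farther away. The median over all listed regions was 1.49, that of the 891 wide regions at gene ends was 1.81, and that of the 25251 narrow distal regions was 1.23. Within 10 bp above the width threshold, 46 regions had 41 higher and 5 lower members and a median of 1.92. Within 10 bp below it, 55 distal regions had 52 higher and 3 lower and a median of 1.81. Within 1000 bp outside the distance threshold, 39 members had 38 higher and 1 lower and a median of 1.74, and within 1000 bp on its other side 55 wide regions were all higher with a median of 1.90.

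The deepest members lay beside genes of unlike function. Regions between genes are named by the gene with the nearest end. That end lay a median of 92794 bp away and at most 1.94e+06 bp. Words such as near therefore name the closest gene end and no link to the gene. The region with the most reads, chr7:27515771-27519451, lay 5991 bp from an end of HIBADH, which encodes an enzyme of valine breakdown. It had 476 reads in the knockdown library and 53 in the control, a fold of 6.19 (4.66 to 8.39). The authors' deposited table gave it the lowest adjusted p of all members, 2.41e-25. Inside DRC4, which encodes a subunit of the dynein regulatory complex of cilia, a region had 343 against 55 reads. A region 230274 bp from ZFP64, a zinc finger gene, had 312 against 45 reads. The region inside BNC2, another zinc finger gene, had 256 against 37 reads. These regions combined many control reads with knockdown reads that were higher again.

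TLE4 encodes a Groucho-family corepressor that is recruited by DNA-binding repressors. A 2610 bp region inside it, chr9:79608920-79611529, had 312 against 26 reads, a fold of 8.28 (5.54 to 12.9). It is among the members whose reads were counted over a narrower width, here 1988 bp, and its reads were solved from the deposited log2 fold change. The listed width would give other counts that do not meet that value. Others named here, among them those near ZFP64, AHR, ANXA3, TGFBI and ROBO1 and in THRB, THRA and MAML2, were solved in the same way. A second TLE4 region had 126 against 21 reads. EDARADD, the adaptor of the ectodysplasin receptor, held a region with 254 against 40 reads. The region beside BBS9, a subunit of the BBSome that carries membrane proteins into cilia, had 284 against 42 reads. All of the 10 deepest regions were higher in the knockdown library.

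Genes of ligand-activated transcription factors were also in this group of 10. The widest member, chr12:53219692-53223794, lay inside RARG, a retinoic acid receptor gene, and had 246 against 42 reads, a fold of 4.04 (2.90 to 5.75). A region 114936 bp from AHR, the receptor for aromatic hydrocarbons, had 254 against 37 reads. Among the other widest members, that in LHX9, a LIM homeobox gene, had 191 against 57 reads and the smallest fold of the 10 widest, 2.31 (1.71 to 3.16). That in SEMA6A, a transmembrane semaphorin gene, had 209 against 47 reads. The largest fold of the 10 widest was in UNC5B, a netrin receptor gene, with 228 against 18 reads and a fold of 8.74 (5.40 to 15.0). The intervals of LHX9 and UNC5B did not overlap, so wide regions were not alike in their ratio.

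The largest ratios among members at or above the median signal came with very few control reads. Regions near ANXA3, an annexin gene, and near STXBP5L, a regulator of vesicle fusion, each had 85 against 3 reads and a fold of 19.5 (6.46 to 96.6). The region inside NCEH1, a cholesterol ester hydrolase gene, had 102 against 4 reads. The region inside SNX27, a sorting nexin gene of endosomes, had 122 against 5 reads, a fold of 16.8 (7.02 to 52.8). In these regions the control library was close to the floor of 3 reads, and the upper bounds are correspondingly loose.

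The same group held regions near or in developmental and adhesion genes. The region near MEOX1, a homeobox gene of somites, had 64 against 3 reads. The region in THRB, a thyroid hormone receptor gene, had 57 against 3 reads. MAGI3, a junction scaffold, had 111 against 6 reads, and ADGRL3, an adhesion receptor of synapses, had 93 against 5 reads. The 2 last named had the same fold of 12.8, with lower bounds of 5.68 and 5.31. Another region near TYW3, which acts in tRNA modification, had 108 against 6 reads, and the region near TGFBI, an extracellular matrix gene, had 53 against 3 reads.

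Only 3 members had no control read at all, and they are named here after their values were seen. A region inside THRA, the second thyroid hormone receptor gene, had 25 against 0 reads, which is at least 5.75-fold higher when the control is set to the floor of 3 reads. A region inside MAML2, a Notch coactivator gene, had 13 against 0 reads and was at least 2.99-fold higher. A region near ROBO1, a receptor for SLIT proteins, had 12 against 0 reads and was at least 2.76-fold higher. All 3 regions were shallow.

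The following lower members were also named after their values were seen, because none of the 64 reached the members' median signal of 27.6 RPKM, as 938 higher members did. The lowest p among them in the authors' deposited table belonged to a region 759449 bp from GALC, a lysosomal enzyme gene, with 6 reads in the knockdown library and 36 in the control. Its signal was 8.70-fold lower (3.63 to 25.3). A region near PHACTR1, a regulator of phosphatase and actin, had 6 against 33 reads and was 7.97-fold lower (3.299 to 23.3). A region 661481 bp from IRX1, an Iroquois homeobox gene, had 5 against 25 reads. So did a region 39276 bp from VCAM1, an adhesion molecule of endothelium. The region inside NRXN3, a presynaptic neurexin gene, had 7 against 28 reads. All 5 were below the control, at depths of 30 to 42 reads in all.

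Lower members were found more often between genes than inside them. There were 19 among 922 members inside a protein-coding gene span (2.06%) and 45 among 954 between genes (4.72%). The median log2 ratios of these positions were 1.95 and 1.96. Of the 954 regions between protein-coding genes, 312 lay inside a lncRNA gene, and 260 of all members lay within 3000 bp of a lncRNA gene end. Within genes, members were spread along the transcribed length. Of 731 higher members assigned to a place in a single gene, 179, 179, 173 and 200 were in the 4 successive equal parts from the gene's start to its end. Whether a member was exonic or intronic was not analysed here.

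In all, 1297 of 20037 protein-coding genes (6.47%) had a member assigned, inside the gene or, between genes, at the nearest gene end. A single member was assigned to 941 genes, and 3 or more to 129. Genes that held a member had a median length of 193993 bp, against 24115 bp over all protein-coding genes. The share of genes with a member went with gene length, from 2.79% of 10198 genes under 25 kb and 5.55% of 6483 genes of 25 to 100 kb to 14.2% of 2583 genes of 100 to 300 kb and 36.7% of 773 genes of 300 kb or more. Gene groups described below are read against the share of the class that holds the list's median length. Each list mixes genes of several classes, so this is no match by length. An excess over the class share was not tested. Of all members, 96.6% were higher, so counts of higher members in a gene or list below are to be read beside that share. The lists were drawn up with earlier results of these data known, so that they are no independent evidence.

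Members within 10000 bp of each other formed 110 runs that held 241 regions, of which 14 runs had 3 or more. No run mixed higher and lower regions, and no run was made of lower regions. The longest run, at chr22:46057005-46088357, held 9 regions over 31353 bp within the predicted gene LOC124905135, a stretch that also carries several lncRNA genes, among them the host gene of let-7 microRNAs. Together they had 831 knockdown and 217 control reads. Their log2 ratios lay between 0.98 and 1.55, below the members' median of 1.96 in each case. Every region of the run was thus higher in the knockdown library, by less than most members were. The gene had 12 assigned members in all, the most of any gene.

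The HOXA cluster had a run of 4 beyond HOXA13, the last gene of the cluster that patterns limbs and the hindgut. From the gene outward these regions had 116, 57, 127 and 200 reads in the knockdown library and 54, 15, 26 and 20 in the control. The fold was 1.48 (1.06 to 2.09) at the nearest region and 6.90 (4.35 to 11.5) at the farthest. Their intervals did not overlap, so neighbouring regions differed in ratio even though all 4 were higher.

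HDAC9, a class IIa histone deacetylase gene whose product is a corepressor of MEF2 factors, held 10 members, all higher. In gene order they had 99, 131, 75, 125, 170, 173, 108, 308, 126 and 96 reads in the knockdown library. The control library had 24, 16, 9, 28, 21, 28, 24, 41, 20 and 20 reads at the same regions. Per kilobase and without scaling between the libraries, knockdown reads lay between 65.0 and 115 and control reads between 11.1 and 20.6. These ranges did not overlap, in a list that held only regions differing between the libraries. The members lay from 22.8 to 909 kb from the gene's start and so spanned nearly its whole length. TWIST1, a mesenchymal transcription factor gene, lies beyond HDAC9, and a region 16933 bp from it had 163 against 18 reads.

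AUTS2, a gene of neuronal development whose product joins Polycomb complexes, also held 10 members. Of these, 9 were higher and 1 was lower. The lower region lay 531 kb from the gene's start and had 5 against 17 reads, and its adjusted p was 0.126 in the authors' deposited table. The others were all farther along the gene, at 756 to 1040 kb. The deepest had 220 against 29 reads, a fold of 5.23 (3.54 to 8.00), and the region 2 kb before it had 57 against 19, a fold of 2.07 (1.21 to 3.68).

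PDE4D, a cyclic AMP phosphodiesterase gene, held 7 members, of which 6 lay 1364 to 1427 kb from the start of a gene of 1553 kb. These had 115, 235, 125, 248, 180 and 185 reads in the knockdown library and 30, 40, 25, 30, 33 and 28 in the control, by rising chromosome position. The seventh lay apart and had 56 against 10 reads. NFIX, another nuclear factor I gene, held 7 members in a span of only 103 kb. The deepest had 221 against 42 reads, and the 2 with the smallest ratios had 84 against 27 and 75 against 27. All members of both genes were higher in the knockdown library.

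**Figure D3:**
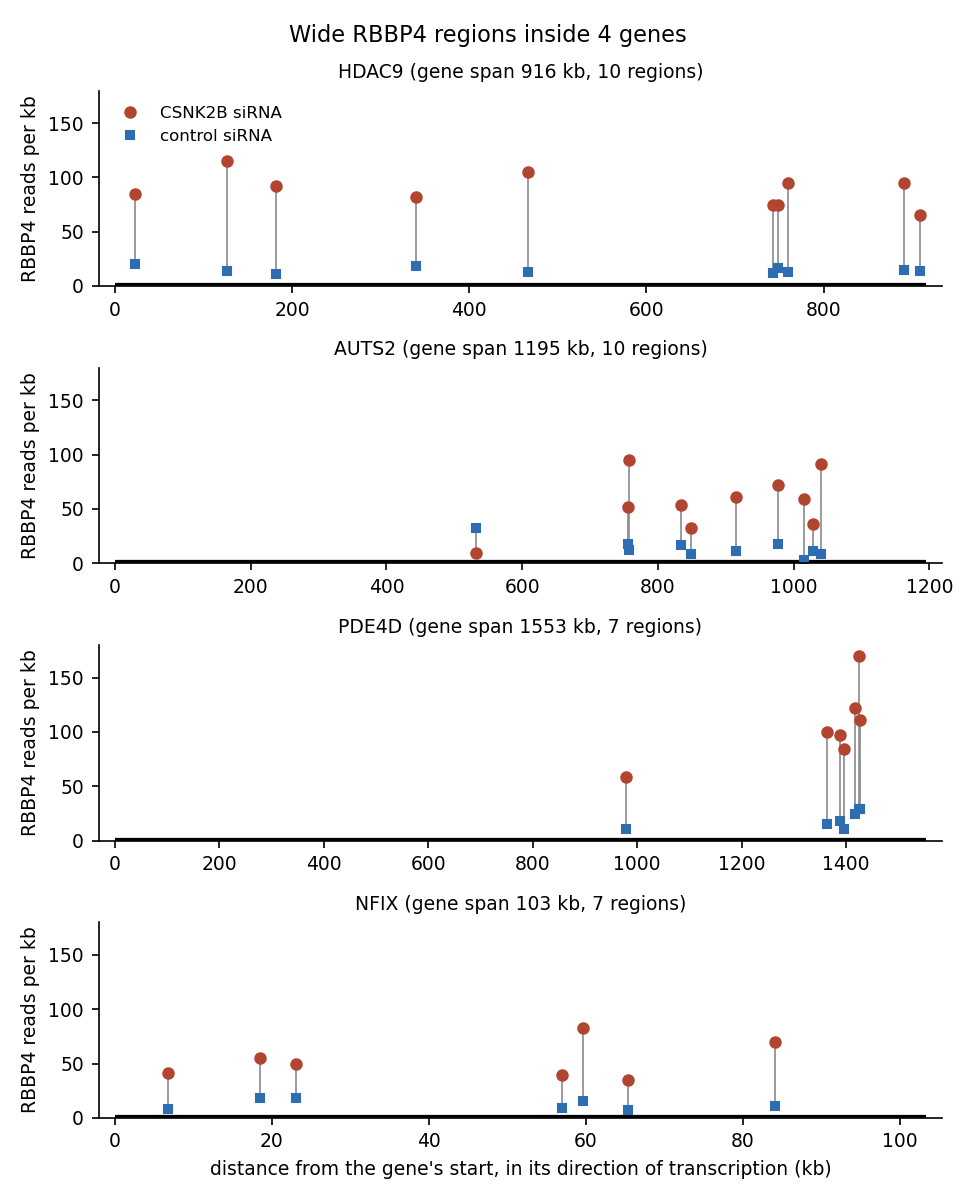
RBBP4 reads per kb (vertical) in the CSNK2B siRNA library (red circles) and the control siRNA library (blue squares) at the wide distal regions inside HDAC9, AUTS2, PDE4D and NFIX, by distance from the gene's start in kb (horizontal). The black bar is the gene and each grey line joins the 2 libraries of a region. Reads are not scaled between the libraries. Knockdown values exceeded control values at all regions except the AUTS2 region at 531 kb, with 9.63 against 32.8 reads per kb.

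Several other genes held series of members. AOPEP, an aminopeptidase gene, had 8 members with 39 to 237 reads in the knockdown library and 8 to 47 in the control. RAD51B, of homologous recombination, had 7 with 37 to 134 and 9 to 16 reads. The gene desert nearest to UQCRFS1, a subunit gene of respiratory complex III, had 8 with 34 to 137 and 5 to 25 reads. ZNF703, a corepressor gene of epithelial cells, had 6 members outside the gene with 55 to 123 and 9 to 20 reads. In AOPEP, RAD51B and ZNF703, and beside UQCRFS1, all members were higher. The smallest ratio was at a RAD51B region with 37 against 16 reads, whose fold interval, 0.866 to 3.07, included 1.

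Transcription factor and corepressor genes that specify lineages carried many members. Of 35 corepressor and zinc finger lineage genes, 19 (54.3%) had a member, with 54 higher and 2 lower. Of 37 SOX, forkhead and homeobox genes, 17 (45.9%) had a member, all 39 higher, where 96.6% of all members were. The genes of these lists had median lengths of 186035 and 154849 bp, in the length class where 14.2% of all genes had a member. The median log2 ratios of their members, 2.004 and 1.85, were close to that of all members, 1.96. No test of a list against other genes was made.

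MLLT3, a subunit gene of the super elongation complex, held a region with 185 against 13 reads, a fold of 9.82 (5.60 to 18.8). ZNF521, a NuRD-binding zinc finger gene, held one with 225 against 22 reads. The region 98434 bp from ZFHX4, a zinc finger homeobox gene, had 210 against 22 reads. None of the 5 regions assigned to TLE1, a second Groucho corepressor gene, lay inside it. The deepest, chr9:80796569-80799007, had 208 against 34 reads, and the nearer end of the gene is at 81583683. The 2 lower members of this list were 298625 bp from KLF5, with 8 against 20 reads, and inside TSHZ3, with 13 against 38. TSHZ3 also held a higher region with 78 against 10. Direction therefore differed between 2 regions of the same gene. Among the homeobox and related genes, the deepest region beside MEIS1, a HOX cofactor gene, had 184 against 34 reads. FOXN3, a forkhead repressor gene, held a region with 135 against 21 reads, and SOX6 one with 127 against 25.

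Axon guidance and synaptic genes formed the other groups with many members. Of 39 guidance genes, 19 (48.7%) had a member, with all 41 members higher, near the 96.6% of all members. Of 40 synaptic and neural adhesion genes, 20 (50%) had a member, with 38 higher and 2 lower. These genes are long, with medians of 240914 and 863069 bp, in the classes where 14.2% and 36.7% of all genes had a member. SLIT3, a secreted ligand of ROBO receptors, held a region with 178 against 29 reads. The deepest region near SEMA3A, a secreted semaphorin gene, had 179 against 26 reads. CNTN1, a contactin of axons, held a region with 171 against 13 reads and a fold of 9.07 (5.17 to 17.4). TENM3, a teneurin that matches synaptic partners, held one with 162 against 12 reads and a fold of 9.31 (5.19 to 18.4). A region inside PTPRD, a receptor phosphatase gene, had 157 against 25 reads, and a region far outside LRFN5, a synaptic adhesion gene, had 156 against 31. The lower members were the NRXN3 region above and a region near CNTN4 with 1 against 10 reads.

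Neuroendocrine identity genes, which define this class of lung cancer, had nearly no member. Only 1 of 34 (2.94%) had a member, SOX11, with 48 against 2 reads and a fold of 16.6 (4.34 to 141). These are short genes, with a median length of 12501 bp, in the class where 2.79% of genes had a member. Of 34 non-neuroendocrine and mesenchymal genes, 9 (26.5%) had a member and all 13 members were higher, at a median gene length of 77284 bp, in the class where 5.55% of genes had a member. A region near TGFB2, a transforming growth factor ligand gene, had 128 against 19 reads. The region inside RUNX2, a Runt factor gene of bone, had 92 against 7 reads, and the region near RUNX1, of blood, had 87 against 12.

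Signalling and matrix genes stood between these groups. Members were found at 9 of 30 nuclear receptor genes, 9 of 41 Wnt, Notch, TGF-beta and Hippo genes, 14 of 36 growth factor signalling genes and 14 of 39 adhesion and matrix genes. These are 30%, 22.0%, 38.9% and 35.9% of the lists. Their median gene lengths of 132992, 80614, 114757 and 216282 bp fall in classes where 14.2%, 5.55%, 14.2% and 14.2% of all genes had a member. All members of these lists were higher except 1 of 23 in the growth factor list, near SPRY2, an inhibitor of receptor signalling, with 8 against 26 reads. RARB, a retinoic acid receptor gene, held a region with 159 against 16 reads, and a region far from NR5A2 had 143 against 16. The region near BMP2, a bone morphogenetic ligand gene, had 156 against 15 reads, and that in ROR2, a WNT5A receptor gene, had 131 against 20. WNT5A itself held a region with 94 against 12 reads. Near SPRED2, an inhibitor of the Ras pathway, a region had 150 against 23 reads, and inside ETV5, a transcription factor of that pathway, 119 against 13. COLEC12, a scavenger receptor gene, held a region with 213 against 20 reads, and PALLD, an actin scaffold gene, one with 112 against 10.

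The lists of RBBP4 complex genes and of cell cycle genes had few members, at shares near or above that of the class of their median length. Of 35 genes for complexes that contain RBBP4, 2 (5.71%) had a member, in the length class where 5.55% of genes had one, and the 3 members were outside the genes. The region near JARID2, a Polycomb cofactor gene, had 83 against 11 reads, and the deeper of 2 near SMARCA1, a nucleosome remodeller gene, had 57 against 9. Of 30 cell cycle and replication genes, 3 (10%) had a member, in the length class at 2.79%. These were CDKN2C, with its region inside the gene, and CCND2 with 45 against 7 reads and MCM5 with 41 against 11, both outside. PCNA, UHRF1 and CDC25C, whose regions are given above, were not on this list, so its count depends on the choice of genes. None of the 4 casein kinase 2 genes had a member. Of 36 histone modifier genes, 6 (16.7%) had one, in the length class at 14.2%, among them HDAC9, KDM4C, a lysine demethylase gene with 141 against 15 reads at its deepest region, and ARID5B with 116 against 10. All 22 members of that list were higher, near the 96.6% of all members.

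Marker genes of other cell types are given for comparison. Of 12 fibroblast markers, 5 (41.7%) had a member, in the length class at 5.55%, but only 1 had a member inside the gene. The region assigned to COL6A3, outside the gene, had 106 against 16 reads, and that assigned to DCN had 90 against 11. Of 12 T cell markers, 1 (8.33%) had a member, in the class at 5.55%, IL7R with 68 against 25 reads outside the gene. None of 12 hepatocyte markers had a member, in the class at 2.79%. Binding near a marker gene is not a measure of the presence of that cell type.

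**Figure D4:**
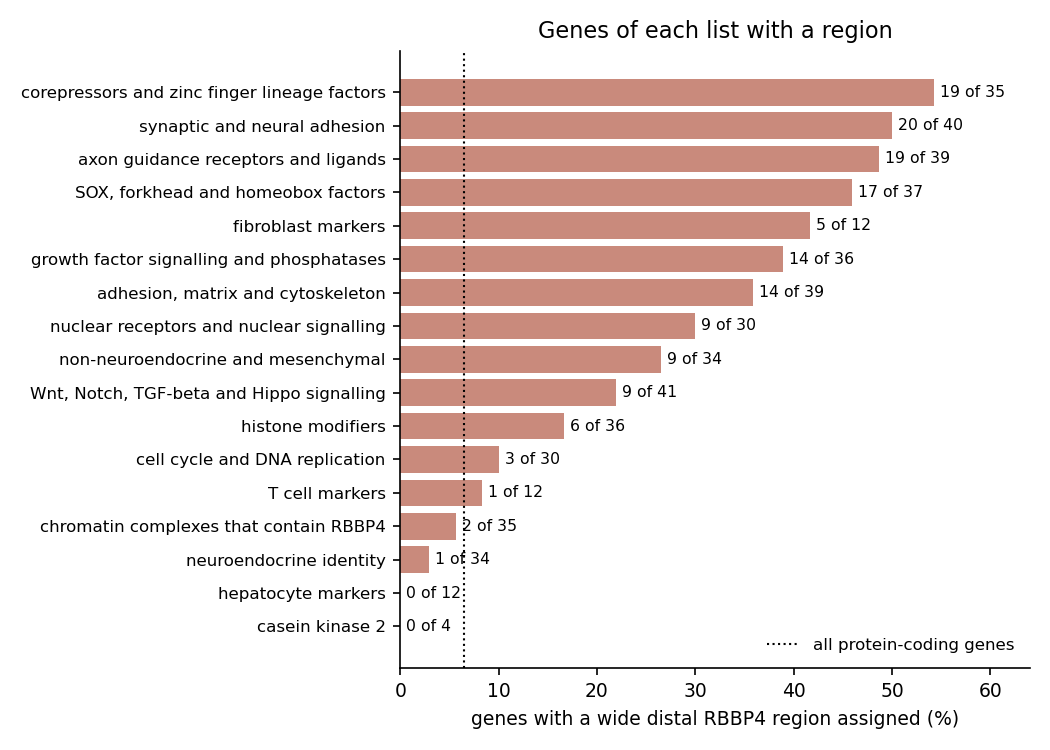
Share of the genes of each list that had a wide distal RBBP4 region assigned (bars, %), with the number of genes beside each bar and the share over all protein-coding genes, 6.47%, as a dotted line. Lists differ in gene length, from a median of 12501 bp for the neuroendocrine list to 863069 bp for the synaptic list, and the bars are not adjusted for it.

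MicroRNA hairpins lay within 1000 bp of 4 members. The region inside DNM3, chr1:172144609-172145780, overlapped MIR199A2 and the start of its host transcript DNM3OS. It had 38 reads in the knockdown library and 5 in the control, a fold of 5.24 (2.06 to 17.1). The mature sequences of this microRNA, which is known from mesenchymal tissues, are shown with the seed, bases 2 to 8, in capitals (RefSeq, GRCh38.p14).
hsa-miR-199a-5p: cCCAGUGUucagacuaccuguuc
hsa-miR-199a-3p: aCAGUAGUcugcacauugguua
The seeds of the 2 arms differ. The other regions were inside BBC3 with 50 against 5 reads, inside BCL9L with 81 against 10 and near MSX2 with 40 against 15, the last with a fold interval of 0.994 to 3.58. All 4 regions were higher in the knockdown library.

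Overlap was counted with the P300 list, which held only regions past a threshold of difference between the libraries. It is therefore no measure of how often P300 bound at wide distal RBBP4 regions. Of the 1876 members, 25 (1.33%) overlapped a listed P300 region by at least 1 base. The share was 0.902% over all listed RBBP4 regions, 0.768% over narrow regions away from gene ends and 1.57% over wide regions at gene ends. Members had a median width of 1274 bp against 429 bp over the list, and these shares are not adjusted for width. The 25 overlaps were 0.122% of the 20496 listed P300 regions. In 8 cases both signals were higher in the knockdown library, in 14 RBBP4 was higher and P300 lower, and in 3 both were lower. P300 was lower at 65.3% of its own list, so the lower P300 signal was also the more frequent direction there. The lowest adjusted p of these P300 regions in the authors' deposited table was 0.260.

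Individual overlaps showed both directions at similar RBBP4 ratios. At GRIN3A, a glutamate receptor subunit gene, RBBP4 had 60 against 14 reads and P300 had 18 against 3. At HOOK2, an adaptor of dynein, RBBP4 had 143 against 29 and P300 had 15 against 3. At TNFRSF1A, a tumour necrosis factor receptor gene, RBBP4 had 40 against 6 reads and P300 had 7 against 19. Near the lymphocyte phosphatase gene PTPRC, RBBP4 had 95 against 17 reads and P300 had 2 against 11. At these 4 regions RBBP4 was higher in the knockdown library each time, while P300 was higher at the first pair and lower at the second. The lower RBBP4 region in NRXN3 had a P300 region with 1 against 9 reads. These overlaps were named after their values were seen.

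**Figure D5:**
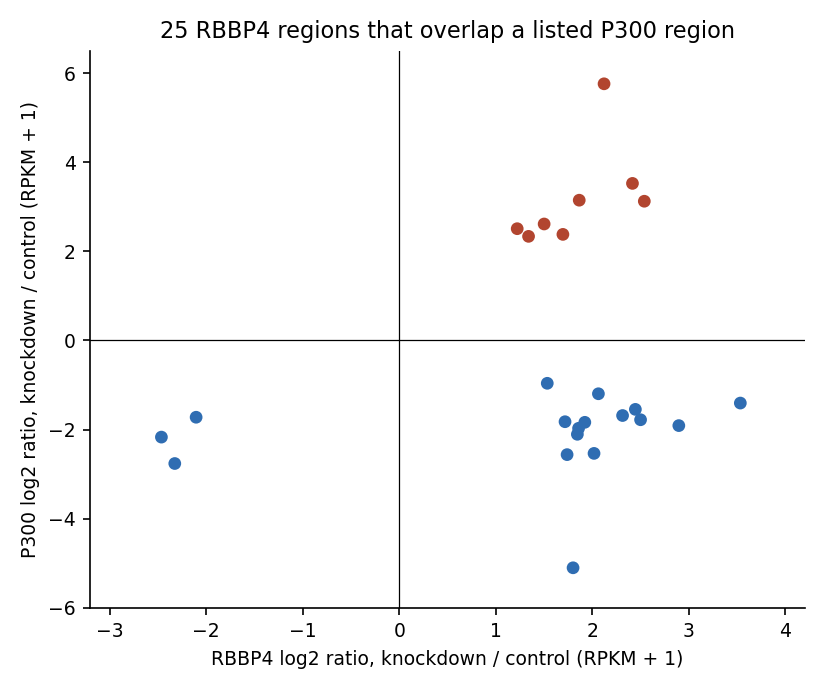
log2 ratio of RBBP4 (horizontal) and of P300 (vertical), knockdown over control on RPKM + 1, at the 25 wide distal RBBP4 regions that overlap a listed P300 region. Red points have higher and blue points lower P300 signal. Of the 22 regions with higher RBBP4, 8 lie above and 14 below zero for P300, and the 3 regions with lower RBBP4 lie below zero for both. Neither axis holds values near 0, since both lists hold only regions past a threshold.

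Members were spread over all chromosomes read, from 19 on X to 173 on chromosome 1. The median log2 ratio per chromosome lay between 1.43 on chromosome 22, where the run of 9 lay, and 2.12 on chromosome 15. Control reads per member were highest on chromosomes 7 and 9, with medians of 16 against 12 over all members.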

How the data were processed

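Chromatin of NCI-H69 cells was fixed with 1% formaldehyde for 10 min, sheared to 200 to 500 bp and sequenced as paired 150 bp reads, per the labels' protocols. The submitters' processing notes name DiffBind 3.4.11, ChIPseeker 1.28.3, MACS2 2.2.7.1 and Bowtie2 2.4.5, with Trim Galore 0.6.7, FastQC and GRCh38. Per the file headers, the deposited tables give RPKM per library, a log2 fold change, a p-value and an adjusted p-value for each region. No score or signal of single replicates was used, and the 4 input libraries were not analysed here.

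Whole reads were recovered from the deposited RPKM and region width, within 0.01 read, for 98.3% of RBBP4 regions. For 596 regions, 236 of them members, the RPKM had been counted over a narrower width, which was solved so that the deposited log2 fold change was met with a prior count of 0.125. On simulated data all reads were recovered, in 35154 RBBP4 and 20496 P300 regions. The simulation used the totals, widths and formula of the recovery itself, so it checks the calculation and not those assumptions. All RBBP4 regions tested by the authors, listed or not, held 1207945 reads in the knockdown and 833181 in the control library.

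The log2 ratio used RPKM with a pseudocount of 1, and a ratio of at least 1 or at most -1 was called 2-fold. Folds were scaled to the reads in all tested regions, with 95% exact binomial intervals. Where a library had 0 reads, a floor of 3 reads was used for that library. PCR duplicates are not independent molecules, so intervals cover counting error only. With 1 library per arm no test was made. The authors' deposited log2 fold changes were higher by 0.58, or 1.50-fold. By the library sizes that these values imply, the knockdown library had a 1.50-fold larger share of its reads in tested regions than the control. Scaling to tested regions takes this difference out of the folds given here, but it enters every listed difference. Its source was not tested.

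Gene ends, names and sequences came from RefSeq GRCh38.p14, and all 506 genes of 17 lists were matched. Named regions were the 10 with the largest ratio in each direction among those at or above the median RPKM, the 10 deepest, the 10 widest, the 10 with the lowest p, all regions of the 10 genes with most members, and up to 4 per list by reads, 154 in all. The text gives a selection of these, and regions outside this rule (over starts, in runs, at microRNAs or P300 regions, or lower) were named after their values were seen. Members and lists were chosen with earlier results of these data known. Python 3.11.15 with pandas 2.3.3, NumPy 2.4.6, SciPy 1.17.1 and matplotlib 3.10.9 was used.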

Additional observations from a re-analysis of the deposited data

How the results depend on the processing

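No paired analysis was possible because each arm had 1 library per antibody. The count of members at least 2-fold higher, 1727, stayed within 1.5 times under both pseudocounts, the 20-read minimum, the authors' log2 fold change, their adjusted p and both distances. It was 160 of 162 at a width of 2000 bp, 6682 of 9464 at 500 bp, and 878 with a 4-fold criterion. The count of 2-fold lower members, 64, became 30 with an adjusted p below 0.05, 0 at 2000 bp, 2178 at 500 bp and 31 at 4-fold. The share at least 2-fold higher thus dropped from 92.1% to 70.6% once regions of 500 bp were admitted.

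The median log2 ratio of 1.96 was 2.04 and 1.64 with pseudocounts of 0.1 and 5, 2.62 on the authors' scale, 1.98 with an adjusted p below 0.05, 2.01 at 2000 bp, 1.56 at 500 bp, 1.97 beyond 10000 bp and 1.95 beyond 1000 bp from gene ends. The overlap with P300 regions, 25, was 5 at 2000 bp, 111 at 500 bp and 58 within 1000 bp. Members inside gene spans, 922, became 81 at 2000 bp and 4493 at 500 bp. With scaling to whole libraries 153 of 154 named regions were again higher, and it moved 20 folds outside their intervals. The last 3 alternatives were chosen after seeing the data, and none moved a count by over 1.5 times: reads counted over at least 1000 bp, distance from lncRNA ends, and members over no start.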
